A study of Mus musculus with 6 samples.

Results

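The complement genes C1qa, C1qb, C1qc, C3, Cfb, Cfp, C4b, C3ar1 and C5ar1 were followed in tdTomato+ cells of control and TgAPPsweOCN;Ai9 mice. The authors call these cells OB progenitors. The genes were chosen by gene symbol, and all 9 were found among the 17469 genes of the count table. OCN-Cre drives Cre recombinase from the osteocalcin promoter, and Ai9 is a tdTomato reporter that Cre switches on. Both genotypes carried these alleles. TgAPPsweOCN;Ai9 mice also carried LSL-APPswe, which Cre switches on: a human amyloid precursor protein with the Swedish mutation under the CAG promoter. BMSCs, the marrow cells that attach in culture, were grown from 6-month-old mice that received no treatment, and RNA-seq was made from sorted tdTomato+ cells. Each genotype, OCN-Cre;Ai9 (control) or TgAPPsweOCN;Ai9, had 3 libraries. The labels do not say how many mice stand behind each library, so p-values measure the spread between these libraries, which may be technical.

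Complement is a set of proteins that mark targets for uptake and call in immune cells. C1q, built of A, B and C chains from separate genes, binds targets and starts the classical pathway, in which C1r and C1s cleave C4 and C2. The lectin pathway joins at the same step through collectins, ficolins and MASP proteases. Both lead to cleavage of C3. Factor B, which pairs with C3b, and properdin, which stabilizes that pair, form the amplification loop of the alternative pathway. The fragments C3a and C5a act through the receptors C3ar1 and C5ar1, while regulators such as CD55 take the C3-cleaving enzymes apart. The liver makes most circulating components, whereas macrophages are a main source of C1q and properdin and carry both anaphylatoxin receptors. Osteoblasts and marrow stromal cells have been described to make C3.

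Sorted tdTomato+ cells of TgAPPsweOCN;Ai9 mice held more C3, Cfb and C4b and less C1q mRNA than control cells. Of the 9 genes, 3 were up-regulated (C3, Cfb and C4b), beside 8.9% of all 12701 tested genes, and 0 were down-regulated, beside 9.2% of them. A gene was called up- or down-regulated where its adjusted p was no larger than 0.05 and its log2 fold change reached 1 or -1. The p came from the quasi-likelihood test of edgeR, adjusted over all tested genes by Benjamini-Hochberg. By the adjusted p alone, 5 of the 9 rose (C3, Cfb, C4b, Cfp and C3ar1), beside 32.5% of all tested genes. Another 4 fell (C1qa, C1qb, C1qc and C5ar1), beside 31.5%. The same 4 were lower at an unadjusted p at or below 0.05, none of them with a log2 fold change of -1 or less. DESeq2 also called 0 of the 9 down-regulated. The FPKM values of the genotypes did not overlap in 9 of the 9 genes, beside 72.3% of all tested genes. The median log2 fold change was 0.61 over the 9 genes and -0.02 over all tested genes. FPKM, fragments scaled to gene length and mapped total, carry no further scaling between libraries. Without edgeR's TMM factors the median over all tested genes moved to -0.23, and the whole table gave 846 up- and 1732 down-regulated genes in place of 1130 and 1169. Ratios of the FPKM values given here therefore need not equal the fold changes of edgeR.

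**Figure D1:**
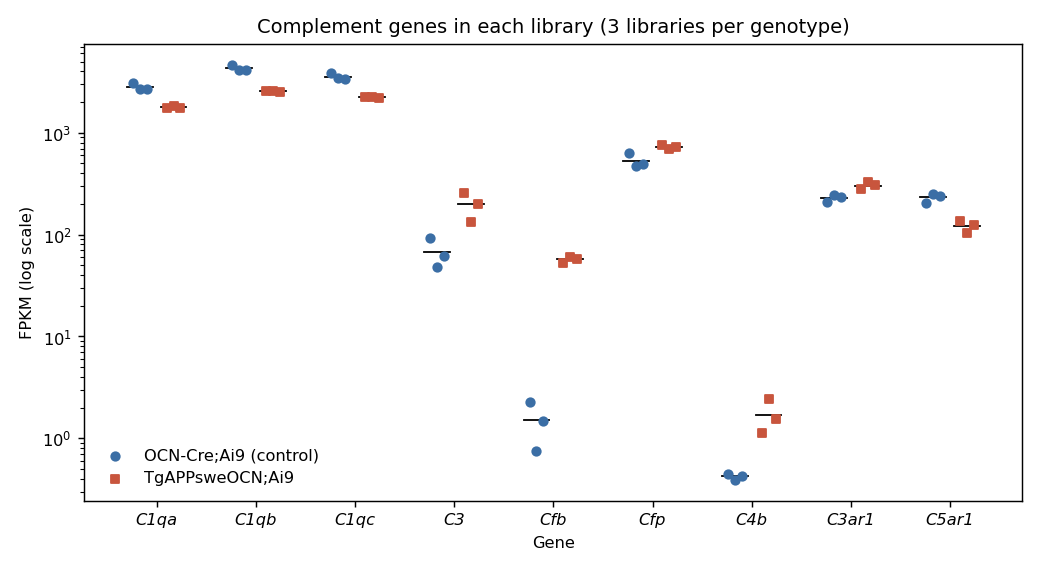
FPKM of the 9 complement genes in each library, on a log scale. Blue circles are control libraries, red squares are TgAPPsweOCN;Ai9 libraries and black lines are means of 3 libraries. The widest gap between genotypes is that of Cfb, from 0.75 to 2.28 in control and from 53.02 to 59.72 in TgAPPsweOCN;Ai9 libraries.

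Libraries held between 19340810 and 22037840 estimated counts, and 3 counts, taken as the smallest detectable level, equalled 0.136 to 0.155 CPM (counts scaled to the library total), which covers counting error only. App, the mouse counterpart of the human transgene, had an FPKM of 281.1, 274.95 and 280.92 in control and 325.21, 331.95 and 332.86 in TgAPPsweOCN;Ai9 libraries. In edgeR, App had a log2 fold change of 0.45 (adjusted p = 7.87e-05), below the threshold of 1. Its single entry does not separate human from mouse transcripts. Macrophage markers were abundant in cells labelled as OB progenitors. Csf1r, the receptor for macrophage colony-stimulating factor, had a mean FPKM of 1214 in control and 370.5 in TgAPPsweOCN;Ai9 libraries. Col1a1, the main bone collagen, had 45.5 and 34.9, and the osteocalcin gene Bglap, whose promoter drives the Cre, had too few counts to be tested (0 to 10 per library). Summed over 15 macrophage markers, FPKM ranged from 17080 to 17890 in control and from 14620 to 18410 in TgAPPsweOCN;Ai9 libraries. Lyz2 alone held a large part of these sums, 8888 to 9263 in control and 5379 to 8724 in TgAPPsweOCN;Ai9 libraries. The median FPKM of the 15 markers did not overlap, at 332.6 to 422.1 in control and 451.6 to 463.5 in TgAPPsweOCN;Ai9 libraries. Of these 15 markers, 5 were up-regulated and 5 down-regulated, beside 8.9% and 9.2% of all tested genes, and none was at 0 throughout. The sum over 15 stromal and osteoblast-lineage markers ranged from 149.7 to 164 and from 114.4 to 178.5. In edgeR, 0 of the 13 tested markers were up- or down-regulated, beside 18.1% of all tested genes. Dmp1, an osteocyte marker, had at most 3 counts in any library.

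Summed FPKM overlapped between genotypes for osteoclast markers (34.4 to 57.2 and 34.3 to 56.6) and neutrophil markers (17.7 to 58.5 and 22.1 to 55.1). They were higher in each TgAPPsweOCN;Ai9 library for dendritic cell markers (0.62 to 0.8 and 0.9 to 1.11) and B cell markers (0.89 to 1.45 and 3.28 to 3.7). Only 2 of 7 dendritic cell markers and 1 of 5 B cell markers had enough counts to be tested. The median FPKM of these markers overlapped between genotypes, at 0.07 to 0.14 and 0.09 to 0.15 (dendritic) and 0 to 0.03 and 0 to 0.04 (B cell). Sums for T and NK cell, mast cell, endothelial and erythroid markers overlapped and were at most 4.35. The part of these cell types in the complement values was not tested. In bulk libraries, fewer cells of a type and less RNA per cell cannot be told apart.

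The promoters of C1qb and C3 are shown as the region just before a gene of the C1q cluster, whose members fell together, and before the most abundant of the up-regulated genes. RefSeq's promoter table for GRCm38.p6 matched 6 of the 9 genes, with no entry for C1qa, Cfb and C4b. Each run is the 250 bases before the start, 5′ to 3′ on the minus strand, at chr4:136886201-136886450 for C1qb and chr17:57228137-57228386 for C3. Capitals mark matches, on either strand, to GAGGAA (PU.1, a myeloid factor) in C1qb and to TTNNGNAA (C/EBP, a family of inflammation and differentiation factors) in C3.
C1qb: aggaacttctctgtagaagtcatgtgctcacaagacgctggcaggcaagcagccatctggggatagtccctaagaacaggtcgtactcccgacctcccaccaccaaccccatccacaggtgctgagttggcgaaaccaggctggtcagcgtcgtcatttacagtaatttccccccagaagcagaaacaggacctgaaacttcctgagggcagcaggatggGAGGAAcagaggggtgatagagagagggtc
C3: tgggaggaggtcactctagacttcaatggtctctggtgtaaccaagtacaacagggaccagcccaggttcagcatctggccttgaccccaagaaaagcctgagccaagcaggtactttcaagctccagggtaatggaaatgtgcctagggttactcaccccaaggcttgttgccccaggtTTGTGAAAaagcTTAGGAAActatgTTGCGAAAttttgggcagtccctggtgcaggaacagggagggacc
C1qb held 1 match to GAGGAA, a word found in 23.3% of all 32851 promoter windows. C3 held 3 matches to TTNNGNAA within 33 bases, which do not overlap. At least 1 such match occurred in 36.8% of all windows, and 3 or more in 2.61%. Neither window held a match to TGANTCA (AP-1, in 6.75% of windows) or TTCNNNGAA (STAT, in 7.02%). These matches describe letters and not binding.

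C1qa, C1qb and C1qc encode the chains of C1q and were among the most abundant transcripts of the sorted cells. They lie side by side on the minus strand within 18719 bases, chr4:136880126-136898844 (GRCm38, mm10), with no other annotated gene starting between them. C1qb (Entrez identifier 12260, chr4:136880126-136886200) had an FPKM of 4647.01, 4161.51 and 4160.11 in control and 2568.65, 2593.83 and 2524.74 in TgAPPsweOCN;Ai9 libraries. C1qc (12262, chr4:136889801-136892936) had 3813.18, 3442.92 and 3400.75 against 2226.33, 2254.02 and 2186.17. C1qa (12259, chr4:136895916-136898844) had 3087.2, 2706.65 and 2665 against 1752.23, 1844.92 and 1763.91. For each chain, every TgAPPsweOCN;Ai9 library lay below every control library, and control replicate 1 was the highest of the 6. By mean FPKM, C1qb ranked 7 of 17469 genes in control and 12 in TgAPPsweOCN;Ai9 cells, C1qc 9 and 16, and C1qa 12 and 21.

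In edgeR, C1qb fell by 0.54 on the log2 scale (standard error 0.0663, 1.45-fold, adjusted p = 0.000136). C1qc fell by 0.46 (standard error 0.0657, adjusted p = 0.000321) and C1qa by 0.44 (standard error 0.0714, adjusted p = 0.000675). None of these changes reached the threshold of 1. The C1q genes together took 1.02 to 1.15% of all counts in control and 0.643 to 0.666% in TgAPPsweOCN;Ai9 libraries. The ratio of C1qc to C1qa FPKM within a library was 1.24, 1.27 and 1.28 in control and 1.27, 1.22 and 1.24 in TgAPPsweOCN;Ai9 cells, with overlap between genotypes (exact permutation test, two-sided p = 0.4, 0.4 after adjustment over 4 ratios). The ratio of C1qb to C1qa was 1.51, 1.54 and 1.56 against 1.47, 1.41 and 1.43. Its values did not overlap, and its difference of -0.10 on the log2 scale had the smallest p that 3 libraries against 3 allow (exact permutation test, two-sided p = 0.1, 0.133 after adjustment). The same exact test on FPKM gave p = 0.1 for each of the 9 genes.

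C4b encodes C4, the next component cleaved in the classical and lectin pathways, and was the scarcest of the 9 genes. C4b (12268, chr17:34728139-34743902, minus strand) had an FPKM of 0.45, 0.39 and 0.43 in control and 1.12, 2.44 and 1.55 in TgAPPsweOCN;Ai9 libraries. These rest on 41.5 to 47.2 estimated counts in control and 131.3 to 286 in TgAPPsweOCN;Ai9 libraries. Each TgAPPsweOCN;Ai9 library lay above each control library, and the TgAPPsweOCN;Ai9 libraries spread more widely than the control ones. C4b was up-regulated, with a log2 fold change of 2.23 (standard error 0.279, 4.68-fold, adjusted p = 0.000152). Its near-identical neighbour C4a shared 16.5% of the 100-base windows of C4b, and the estimated counts of C4b were fractional in all 6 libraries, so the split between both genes is uncertain. C4a had 12.9 to 25.8 counts in control and 9.5 to 17 in TgAPPsweOCN;Ai9 libraries, with a log2 fold change of -0.33 (adjusted p = 0.451). With the counts of both genes added up, the log2 fold change was 1.82 (adjusted p = 0.000369).

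C3, the component on which all pathways meet, and Cfb, which encodes factor B, were both up-regulated. C3 (12266, chr17:57203967-57228136, minus strand) had an FPKM of 92.57, 47.95 and 61.75 in control and 258.95, 134.38 and 200.14 in TgAPPsweOCN;Ai9 libraries. The genotypes did not overlap, though libraries of the same genotype differed widely, from 67.4 ± 22.8 (mean ± SD, n = 3) to 198 ± 62.3. C3 rose, with a log2 fold change of 1.90 (standard error 0.264, 3.73-fold, adjusted p = 0.000282). Cfb (14962, chr17:34856374-34862514, minus strand) had an FPKM of 2.28, 0.75 and 1.48 in control and 53.02, 59.72 and 58.2 in TgAPPsweOCN;Ai9 libraries. Control cells thus held little Cfb, at 40 to 120 counts, against 3135 to 3506 counts in TgAPPsweOCN;Ai9 cells. Its log2 fold change of 5.46 (standard error 0.257, 43.9-fold, adjusted p = 5.99e-07) lay above that of 99.6% of all tested genes. A read-through gene, Gm20547, which has no entry in the count table, shared 81% of the 100-base windows of Cfb, and reads from both cannot be told apart. In rank by mean FPKM, Cfb moved from 10431 in control to 1480 in TgAPPsweOCN;Ai9 cells, and C3 from 1213 to 404.

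The ratio of Cfb to C3 FPKM within a library was 0.0246, 0.0156 and 0.024 in control and 0.205, 0.444 and 0.291 in TgAPPsweOCN;Ai9 cells. Cfb was thus higher relative to C3 in each TgAPPsweOCN;Ai9 library, by 14.2-fold on average (exact permutation test, two-sided p = 0.1, 0.133 after adjustment over 4 ratios). Cfp encodes properdin, which stabilizes the complex of factor B with C3b, and was abundant in both genotypes. Cfp (18636, chrX:20925454-20931555, minus strand) had an FPKM of 633.67, 467.17 and 491.47 in control and 760.33, 691.64 and 719.59 in TgAPPsweOCN;Ai9 libraries. Control replicate 1 came nearest to the TgAPPsweOCN;Ai9 libraries, without overlap. Cfp had a log2 fold change of 0.66 (standard error 0.116, 1.58-fold, adjusted p = 0.00108), below the threshold of 1.

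**Figure D2:**
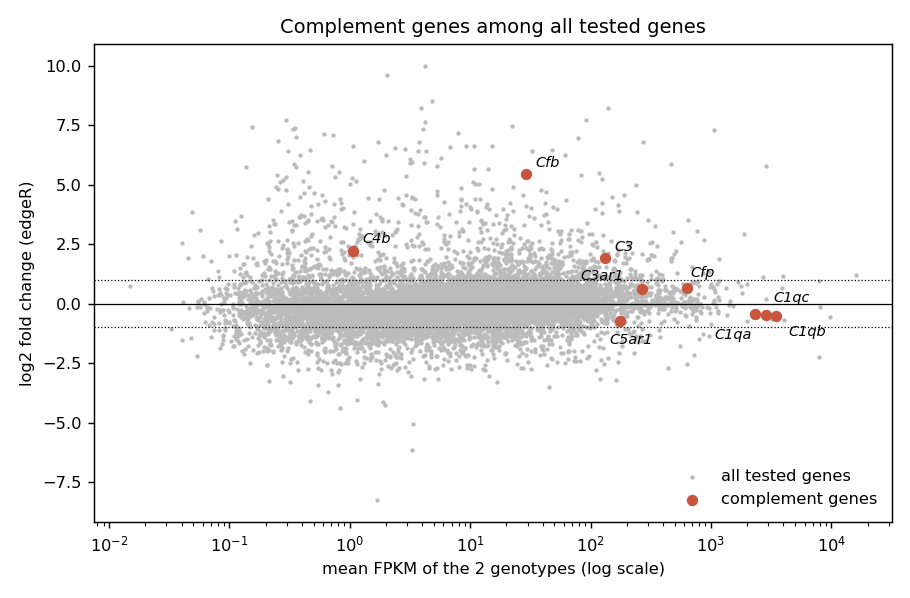
Log2 fold change (edgeR, TgAPPsweOCN;Ai9 over control) of all 12701 tested genes, in grey, and of the 9 complement genes, in red, against mean FPKM on a log scale. Dotted lines mark log2 fold changes of 1 and -1. Cfb, C4b and C3 lie above the upper line, while the abundant C1q genes lie between the lines, below 0.

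The anaphylatoxin receptors moved in opposite directions. C3ar1, the receptor for C3a (12267, chr6:122847140-122856157, minus strand), had an FPKM of 208.15, 245.95 and 235.73 in control and 278.95, 325.2 and 303.68 in TgAPPsweOCN;Ai9 libraries. C5ar1, the receptor for C5a (12273, chr7:16246743-16259540, minus strand), had 201.96, 252.77 and 240.09 against 134.55, 104.77 and 125.08. All TgAPPsweOCN;Ai9 libraries lay above control for C3ar1 and below control for C5ar1. C3ar1 had a log2 fold change of 0.61 (standard error 0.0774, 1.53-fold, adjusted p = 0.000163). C5ar1 fell by 0.71 (standard error 0.117, 1.64-fold, adjusted p = 0.000751). Neither change reached the threshold of 1. The ratio of C5ar1 to C3ar1 FPKM was 0.97, 1.03 and 1.02 in control and 0.482, 0.322 and 0.412 in TgAPPsweOCN;Ai9 libraries. Both receptors were thus at like levels in control cells, and C5ar1 was below C3ar1 in each TgAPPsweOCN;Ai9 library, a 2.51-fold shift in the ratio (exact permutation test, two-sided p = 0.1, 0.133 after adjustment over 4 ratios).

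**Figure D3:**
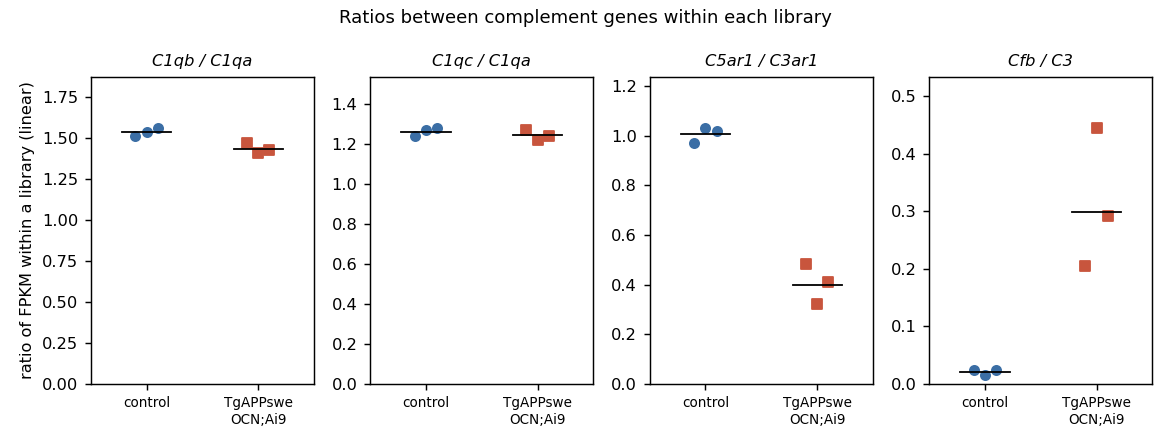
Ratios of FPKM between pairs of complement genes within each library, on linear axes that start at 0. Points are libraries, 3 per genotype, and lines are geometric means. C5ar1 over C3ar1 falls from 0.97 to 1.03 in control to 0.322 to 0.482, and Cfb over C3 rises from 0.0156 to 0.0246 to 0.205 to 0.444, while C1qc over C1qa overlaps between genotypes.

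In order of FPKM, control cells had C1qb, C1qc, C1qa, Cfp, C5ar1, C3ar1, C3, Cfb and C4b, from high to low. In this order only C5ar1 and C3ar1 overlapped with their neighbour in the range of the libraries. In TgAPPsweOCN;Ai9 cells the first 4 and the last 2 places were the same, with C3ar1, C3 and C5ar1 between them, of which C3 and C5ar1 overlapped. The 9 genes together took 1.28 to 1.42% of all counts in control and 1.02 to 1.04% in TgAPPsweOCN;Ai9 libraries. The macrophage markers that accompany these genes also moved in both directions. Cd68, a lysosomal marker, had a mean FPKM of 1268 in control and 457.5 in TgAPPsweOCN;Ai9 cells, whereas Adgre1, a surface receptor of mature macrophages, had 563.2 and 1776.

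A further 46 complement genes were listed by role, of which 41 were in the table and 22 had enough counts to be tested. Of these 22, 8 were up-regulated and 3 down-regulated, beside the 8.9% and 9.2% of all tested genes. By the adjusted p alone, 9 rose and 7 fell, beside 32.5% and 31.5% of all tested genes, and 6 did not pass. Their median log2 fold change was -0.03. The 19 genes of the table that were not tested had at most 13 counts in any library, and the other 5 were not analysed here.

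Of 7 tested genes of the classical and lectin pathways, 3 were up-regulated and 1 was down-regulated, beside 8.9% and 9.2% of all tested genes. C1s1, a protease of the C1 complex, had an FPKM of 1.69 ± 0.177 in control (mean ± SD, n = 3) and rose to 3.98 ± 0.775 (log2 fold change 1.45, standard error 0.16, adjusted p = 7.02e-05). C1ra, its partner protease, rose from 2.97 ± 0.885 to 5.70 ± 1.60 (log2 fold change 1.15, standard error 0.241, adjusted p = 0.00297). C1ra lost this call under 6 of 17 alternatives: its log2 fold change was 0.947 without TgAPPsweOCN replicate 2, 0.939 when scaled by library size only, 0.916 in limma on log2(FPKM + 0.1) and 0.748 in limma on log2(FPKM + 1), with and without a filter, and its adjusted p was 0.709 in edgeR's glmTreat, a test against a log2 fold change of 1. By the adjusted p, these proteases rose while the C1q chains fell. C2, which lies next to Cfb, rose from 0.46 ± 0.108 to 1.75 ± 0.411 (log2 fold change 2.14, standard error 0.271, adjusted p = 0.000163). Gm20547 shared 53.2% of its windows, and its counts lay between 17 and 28 in control. Masp1, a protease of the lectin pathway, was down-regulated, from 3.47 ± 0.837 to 1.23 ± 0.328 (log2 fold change -1.27, standard error 0.216, adjusted p = 0.000926). It lost this call in glmTreat (adjusted p = 0.305 from edgeR) and in limma on log2(FPKM + 1), with and without a filter (-0.994). Colec12, a scavenger receptor with a collectin-like head, fell from 16.8 ± 0.354 to 10.1 ± 2.27 (log2 fold change -0.52, adjusted p = 0.00722).

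Of the alternative and terminal pathways, 6 further genes were in the table and 0 had enough counts for edgeR's test, so no p is given for any of them. Cfd, the protease that cleaves factor B, had 1 to 10 counts in control and 6 to 11 in TgAPPsweOCN;Ai9 libraries. C8g, a chain of C8, had 7 to 13 and 9 to 10 counts. Hc, which encodes C5 and was named after its values were seen, had 0 to 1 and 1 to 2 counts, within the smallest detectable level of 3 counts.

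Of 8 tested regulators, 3 were up-regulated and 1 was down-regulated, beside 8.9% and 9.2% of all tested genes. Cd55, a membrane protein that speeds the decay of C3 convertases, had an FPKM of 14.84, 7.9 and 11.97 in control and 230.83, 243.4 and 233.87 in TgAPPsweOCN;Ai9 libraries. This 18.6-fold rise (log2 fold change 4.22, standard error 0.244, adjusted p = 1.87e-06) went with fractional counts in all 6 libraries, and 5.5% of the windows of Cd55 were shared with Cd55b. Each TgAPPsweOCN;Ai9 library lay far above each control library.

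Serping1, which encodes the C1 inhibitor, rose from 12.1 ± 2.03 to 36.2 ± 10.5 (log2 fold change 1.80, standard error 0.203, adjusted p = 8.15e-05). Clu, a chaperone that blocks the terminal complex, rose from 0.80 ± 0.177 to 2.45 ± 1.25 (log2 fold change 1.80, standard error 0.404, adjusted p = 0.0042). It lost its call in glmTreat (adjusted p = 0.111 from edgeR) and in limma on log2(FPKM + 1), with and without a filter (0.872). Of the other membrane regulators, Cd46 fell from 0.837 ± 0.0379 to 0.413 ± 0.0929 (log2 fold change -0.91, adjusted p = 0.00225), and its fold change passed the threshold without TgAPPsweOCN replicate 2, at -1.01, and when scaled by library size only, at -1.13. Cr1l (Crry), the main membrane regulator of rodents, had a log2 fold change of -0.04 (adjusted p = 0.645). Cd59a, which blocks the terminal pore, had 0.16 (adjusted p = 0.344), or -0.06 when scaled by library size only. C1qbp, a largely mitochondrial C1q-binding protein and among the more abundant in this role, had -0.02 (adjusted p = 0.811).

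Among 7 tested receptors, 2 were up-regulated and 1 was down-regulated, beside 8.9% and 9.2% of all tested genes. Itgam and Itgb2 encode both chains of complement receptor CR3, which binds C3 fragments. Itgam rose from an FPKM of 243 ± 20.1 to 502.3 ± 9.93 (log2 fold change 1.26, standard error 0.0718, adjusted p = 1.68e-06). Itgb2 rose from 263 ± 22.9 to 525.6 ± 11.8 (log2 fold change 1.21, standard error 0.0713, adjusted p = 2.02e-06), or 0.998 when scaled by library size only and in limma on log2(FPKM + 1), just under the threshold. C5ar2, a further C5a receptor and the neighbour of C5ar1, was down-regulated, from 5.91 ± 0.167 to 1.97 ± 0.286 (log2 fold change -1.42, standard error 0.116, adjusted p = 1.24e-05). Both C5a receptors were thus lower in TgAPPsweOCN;Ai9 libraries. Calr, a chaperone that also binds C1q at the cell surface, rose from 543.7 ± 8.89 to 821.5 ± 33.8 (log2 fold change 0.81, adjusted p = 8.7e-06).

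**Figure D4:**
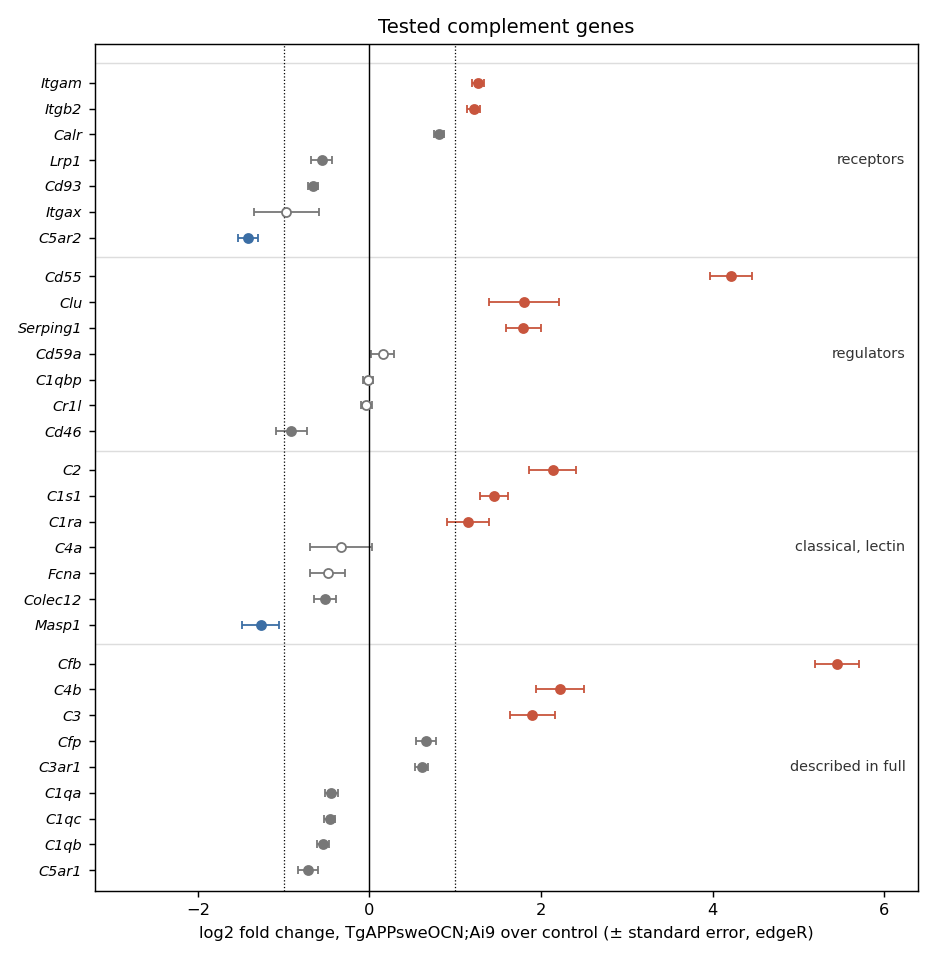
Log2 fold changes with standard errors (edgeR) of the 9 complement genes described in full, at the bottom, and of other tested complement genes by role. Red and blue mark up- and down-regulated genes, grey the rest, open points an adjusted p above 0.05 and dotted lines 1 and -1. Cfb (5.46) and Cd55 (4.22) lie farthest to the right and C5ar2 (-1.42) farthest to the left.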

How the data were processed

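RNA-seq was measured in 3 control and 3 TgAPPsweOCN;Ai9 libraries. The authors sequenced on a DNBSEQ platform and mapped clean reads with HISAT2. The submitters' processing notes name HISAT2 2.0.4, Bowtie2 2.2.5, RSEM 1.2.12, DESeq2 1.4.5 and the build mm10. The authors deposited estimated counts per gene (expected counts, fractional for 13.3 to 14.4% of genes per library) and FPKM. A further table of the authors repeats FPKM beside their own log2 ratio and p-value, and was not used.

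The test was planned for raw counts, so estimated counts were rounded. The main test was the quasi-likelihood test of edgeR 4.0.16 in R 4.3.3 (TMM, filterByExpr, genotype only), limma 3.58.1 and DESeq2 1.42.0 serving as alternatives. Totals were 19340810 to 22037840 counts per library, and the biological coefficient of variation was 9.85%. The procedure was tested on simulated data. Single values were compared with an exact permutation test. Python 3.11.15, pandas 2.3.3, scipy 1.17.1 and matplotlib 3.10.9 were used for the rest.

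The members and lists were chosen with earlier results of these data known. Named genes are the 9 members, each other complement gene that was up- or down-regulated, C4a, the tested membrane regulators and C1 inhibitor, the 2 genes of each role with the highest FPKM, and App. A gene under this rule is not reported here. Marker genes named beside them were chosen after their values were seen. Coordinates are from GENCODE (GRCm38). The motifs were chosen after the promoters were seen. Shared sequence was counted as 100-base windows of a transcript that occur in transcripts of another gene. Alternatives were other size factors, filters, thresholds, limma on log2(FPKM + 1) or log2(FPKM + 0.1), a replicate block and leaving out each library.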

Additional observations from a re-analysis of the deposited data

How the results depend on the processing

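All 9 complement genes kept their direction under each alternative run, and in all fits that left out 1 library 3 were up-regulated and 0 down-regulated. Without a fold change threshold 5 of the 9 rose and 4 fell, since C1qa (-0.44), C1qb (-0.54), C1qc (-0.46), Cfp (0.66), C3ar1 (0.61) and C5ar1 (-0.71) then count. C4b had 0.90 in limma on log2(FPKM + 1), with and without a filter, under the threshold, since the pseudocount shrinks changes of low genes.

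Over all genes, the number up-regulated was 751 with glmTreat (a test against a log2 fold change of 1), 4122 without a fold change threshold, 593 in limma on log2(FPKM + 1) and 589 without its filter, and 1103 to 1150 when leaving out a library. The number down-regulated was 552 with glmTreat, 4007 without a fold change threshold and 1125 to 1262 when leaving out a library. Of the other complement genes, 3 were up-regulated in limma on log2(FPKM + 1), with and without a filter, and 7 to 8 when leaving out a library. Down-regulated were 5 when scaled by library size only, 7 without a fold change threshold and 3 to 4 when leaving out a library. Itgax, named after its values were seen, was down-regulated without control replicate 1 (-1.27) and without TgAPPsweOCN replicate 1 (-1.32). With all libraries it was not in the main test (-0.97, adjusted p = 0.0507 from edgeR), but was when scaled by library size only (-1.19) and in filtered limma on log2(FPKM + 1) (-1.11) or log2(FPKM + 0.1) (-1.17). C1s1 (0.88) and C2 (0.91) fell under the threshold in limma on log2(FPKM + 1), with and without a filter.

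Directions turned for genes near 0: when leaving out a library, Cr1l ranged from -0.088 to 0.003, C1qbp from -0.055 to 0.032 (both highest without TgAPPsweOCN replicate 2) and Cd59a from -0.012 (without TgAPPsweOCN replicate 1) to 0.271. Cd59a was also -0.062 when scaled by library size only, -0.072 in limma on log2(FPKM + 1), with and without a filter and -0.079 in limma on log2(FPKM + 0.1). The cause was not tested. Of 658 values, 600 were rated the same. For single genes this meant the same direction and side of the threshold, and for counts of genes a change within 1.5 times. For the 28 ratio values it meant the same direction and, when leaving out a library, a shift below the larger genotype SD.

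With the replicate number as a replicate block, 1115 genes were up- and 1147 down-regulated, with 3 and 0 of the 9 complement genes among them. The block changed none of the 9 calls. Deviations of libraries with the same number correlated at 0.0127, 0.00664 and 0.141, and not every library correlated best with its own number. With 3 libraries per genotype, these correlations cannot decide whether the numbers pair the libraries.

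Depth limits the 19 untested complement genes, with at most 13 counts per library, and precision rests on 3 libraries per genotype.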
